A study of Mus musculus with 14 samples.

Results

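The 8 genes followed here were chosen by symbol as markers of alveolar macrophages, the phagocytes that live in the airspaces of the lung. They are Marco, Msr1, Mrc1, Cd5l, Chil3, Ear2, Siglecf and Car4. All 8 were found among the 48795 genes of the count table by their Ensembl identifiers. The table came from RNA sequencing of 14 fibroblast cultures that were grown from pieces of mouse lung or dorsal skin, kept unstimulated on plastic in serum medium, and scraped for RNA on day 14. Lung cultures came from wild-type C57BL/6J mice (5 libraries, numbered 1, 23, 3, 4 and 5) and from Rel -/- mice of the same strain label (4 libraries, 7 to 10). Skin cultures came from the same genotypes, with 2 wild-type libraries (11 and 22) and 3 Rel -/- libraries (18 to 20). Rel encodes c-Rel, an NF-kappaB transcription factor, and mice were described as male and 8 to 10 weeks old. The labels describe no cell sorting, so a library holds whatever grew or survived on the dish, and they do not say whether libraries of a group were separate animals. The p-values below therefore measure the spread between these libraries, which may be technical. Rel-null lung 10 has a treatment entry that says skin, while its title and source say lung, and it was kept with lung.

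Alveolar macrophages clear particles, surfactant and bacteria, and depend on GM-CSF and TGF-beta for their identity. Scavenger receptors and lectins do much of the clearing: Marco and Msr1 are class A scavenger receptors, Mrc1 is the mannose receptor CD206, and Cd5l (AIM) is a secreted scavenger-receptor-domain protein of tissue macrophages. Chil3 (Ym1) is a secreted chitinase-like lectin, Ear2 a secreted ribonuclease of the eosinophil-associated family, Siglecf a sialic-acid-binding surface receptor, and Car4 (carbonic anhydrase IV) a membrane-anchored enzyme. None of the 8 is unique to the alveolar macrophage: Siglecf and the Ear family are also known from eosinophils, Car4 from lung capillaries, and Mrc1 and Msr1 from many tissue macrophages.

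The promoters are shown because macrophage genes are read through PU.1, the product of Spi1, and because Rel itself is an NF-kappaB subunit. Promoter sequence was given for 7 of the 8 genes in the RefSeq table (GRCm38.p6), and Msr1 was not matched. In the 250 bases before the start site, the PU.1 core GAGGAAG, searched on both strands, was found in 4 of 7 genes, against 10.61% of the 32851 promoters in the table. The stretches from -200 to -25 of those 4 genes read as follows, with the match in capitals (CTTCCTC where it lies on the other strand).
Marco (chr1:120505049-120505224, minus strand): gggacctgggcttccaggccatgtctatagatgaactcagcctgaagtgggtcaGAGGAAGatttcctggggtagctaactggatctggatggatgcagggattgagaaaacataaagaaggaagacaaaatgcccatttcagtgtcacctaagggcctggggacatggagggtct
Mrc1 (chr2:14229214-14229389, plus strand): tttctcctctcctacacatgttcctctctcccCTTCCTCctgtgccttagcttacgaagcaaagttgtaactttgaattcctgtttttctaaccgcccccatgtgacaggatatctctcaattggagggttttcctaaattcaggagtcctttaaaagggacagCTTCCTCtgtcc
Cd5l (chr3:87357681-87357856, plus strand): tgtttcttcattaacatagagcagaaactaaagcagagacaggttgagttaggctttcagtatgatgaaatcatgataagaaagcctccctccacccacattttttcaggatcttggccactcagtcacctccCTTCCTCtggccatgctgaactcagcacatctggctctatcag
Siglecf (chr7:43351141-43351316, plus strand): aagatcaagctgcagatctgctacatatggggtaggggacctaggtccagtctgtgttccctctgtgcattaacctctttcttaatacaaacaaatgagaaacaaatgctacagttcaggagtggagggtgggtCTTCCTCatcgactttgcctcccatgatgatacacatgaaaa
Marco carried its match at -146 to -140, Cd5l at -67 to -61 and Siglecf at -66 to -60, while Mrc1 had a pair, at -168 to -162 and -36 to -30. The C/EBP letters TTGCNNAA occurred only in Ear2 among the 7, against 9.564% of all promoters, and an NF-kappaB site by name only in Car4, against 7.251%. These are letter matches in a fixed window, not measured binding.

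A pair of the genes has near-identical neighbours, which bears on how their reads could be counted. Ear2 lies on chromosome 14 (44102654 to 44103534, plus strand), and its coding sequence differed from that of Ear1 at 20 of 465 aligned bases, an identity of 95.7%. The 100 coding bases in which they differ most (bases 71 to 170 from the start codon) are printed with the 8 differing bases in capitals.
Ear2: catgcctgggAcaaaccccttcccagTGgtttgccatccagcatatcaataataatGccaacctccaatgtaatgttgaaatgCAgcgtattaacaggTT
Ear1: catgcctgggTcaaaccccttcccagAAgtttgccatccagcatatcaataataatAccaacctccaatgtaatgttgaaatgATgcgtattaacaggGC
Of all 50-base stretches of the Ear2 transcript, 41.49% also occurred in another gene, most often Ear10 or Ear1, and Ear2 overlaps the antisense lincRNA Gm49101. Chil3 shared 26.89% of its stretches with other genes, mainly Chil4 (94.41% identical). Siglecf shared 0.2058%, and Marco, Cd5l, Car4, Mrc1 and Msr1 shared none. Counts of Ear2 and Chil3 are therefore uncertain to the extent that such reads were dropped or split, a setting not given in the sources used here.

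Library totals lay between 12780350 and 30987933 counts, except wild-type skin 22 with 2663437. Rel, the targeted gene, ranged over 1.10 to 17.3 CPM (counts scaled to a common library total) among wild-type lungs and over 0.0651 to 4.06 CPM among Rel-null lungs. In wild-type skin its level was 10.9 to 11.5 CPM, and it was 0.0349, 9.42 and 9.47 CPM for the skin libraries labelled Rel-null 18, 19 and 20, so the last pair goes against its label. Wild-type lung 4, at 1.10 CPM, lay below 3 of the 4 Rel-null lungs, so its Rel level goes against its label too. The libraries lowest in Rel (wild-type lung 4, Rel-null lung 7 and Rel-null skin 18) are all among those with many genes at 0 counts, given next. Whether these gaps lowered Rel was not tested. Some libraries stood apart: of the genes expressed in their tissue, Rel-null lung 7 had 11.5% at 0 counts, wild-type skin 11 had 8.22%, wild-type lung 4 had 5.78% and Rel-null skin 18 had 3.37%, while no other library of the remaining 10 passed 0.728%. Xist was expressed in wild-type lung 1 and wild-type skin 22, although the mice were described as male. Genes of 7 other cell types or classes are given at the end, with the macrophage lists.

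**Figure D1:**
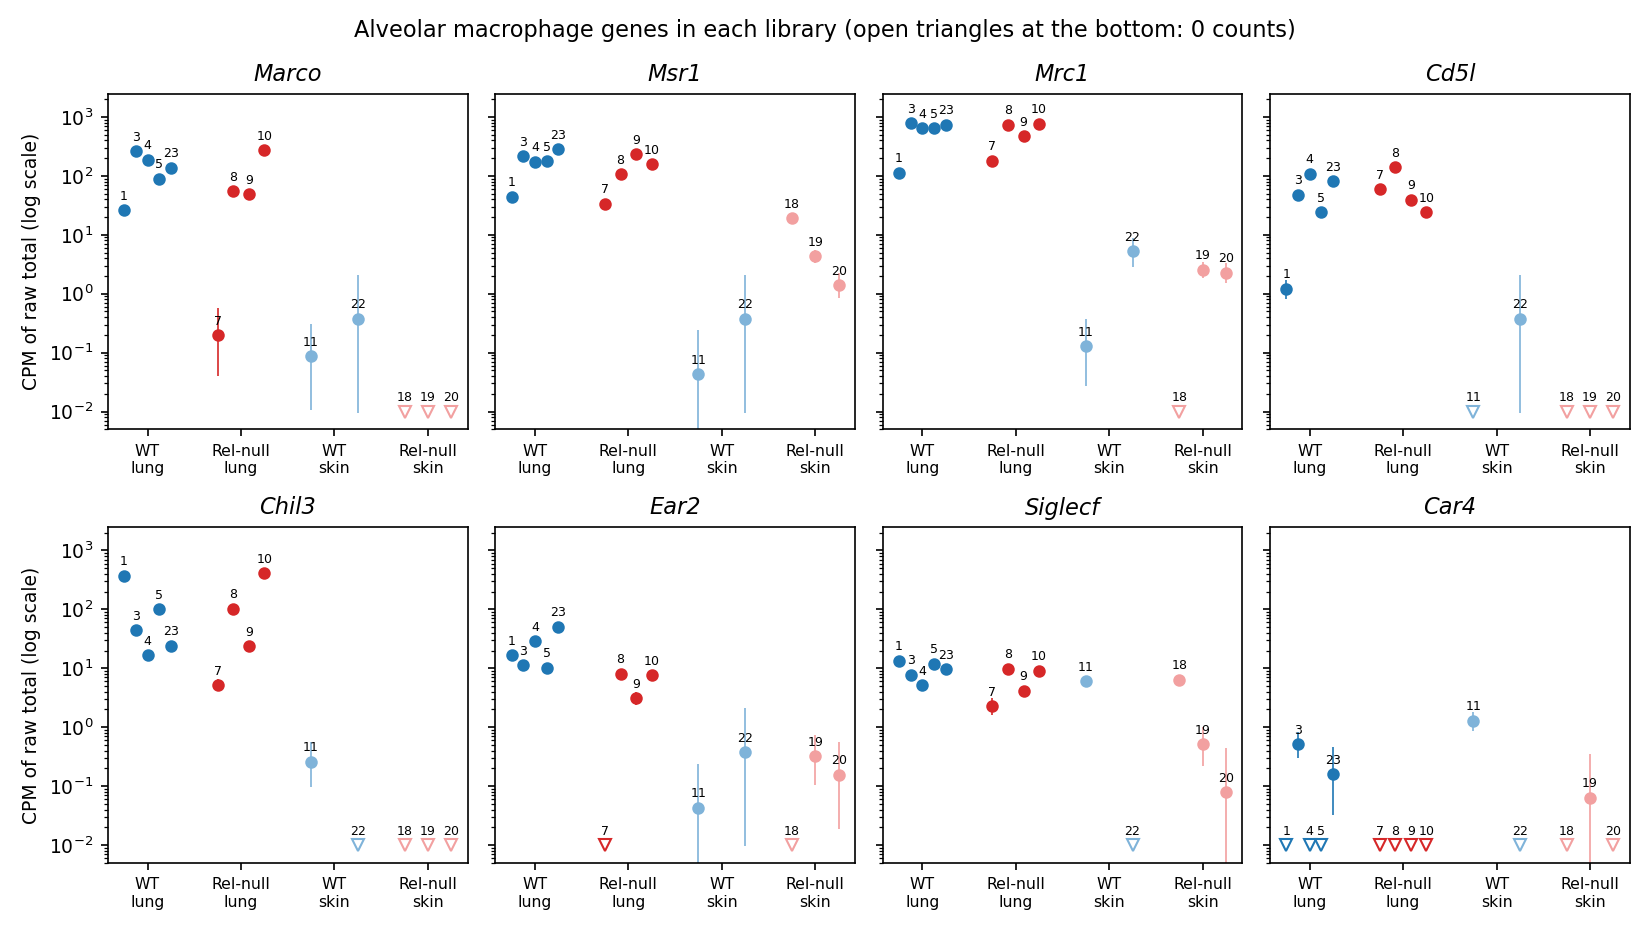
Level of each of the 8 genes in each of the 14 libraries, in CPM of the raw total on a log axis, with exact Poisson 95% bars (counting error only) and library numbers; open triangles mark 0 counts. Every lung library lies above every skin library for Chil3, Cd5l, Mrc1 and Msr1; Marco and Ear2 overlap through Rel-null lung 7, and Siglecf and Car4 overlap more widely.

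The scavenger receptors were read clearly in lung. Marco, a receptor for bacteria and particles, stood at 25.9, 138, 262, 189 and 88.8 CPM in wild-type lung 1, 23, 3, 4 and 5. Its levels for Rel-null lung 7, 8, 9 and 10 were 0.195, 55.1, 49.3 and 271 CPM. The groups overlapped, and Rel-null lung 7, with 3 counts (95% interval 0.0403 to 0.571 CPM), lay far below every other lung library. Msr1, the class A receptor for modified lipoproteins, ran from 44.1 CPM in wild-type lung 1 to 285 CPM in wild-type lung 23, with 214, 174 and 178 CPM in 3, 4 and 5. In Rel-null lung 7 to 10 it read 33.6, 107, 231 and 159 CPM, again overlapping the wild type. The lowest library of each genotype was the same for Marco and for Msr1: wild-type lung 1 and Rel-null lung 7.

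Mrc1, which binds mannose-bearing glycoproteins, was the most abundant of the 8 in most lung libraries. It read 112, 736, 777, 640 and 639 CPM in wild-type lung 1, 23, 3, 4 and 5, and 181, 737, 472 and 764 CPM in Rel-null lung 7 to 10. Wild-type lung 1 and Rel-null lung 7 were again lowest, and the groups overlapped. Cd5l behaved differently. Wild-type lung 1 held it at 1.21 CPM (31 counts, interval 0.825 to 1.72), with 81.5, 48.2, 109 and 24.0 CPM in wild-type lung 23, 3, 4 and 5. Rel-null lung 7 to 10 read 58.8, 141, 39.5 and 24.0 CPM, so the Rel-null library that was nearly without Marco was not low in Cd5l.

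Chil3, the secreted lectin Ym1, varied most among the well-read genes by coefficient of variation. It stood at 375, 24.0, 44.7, 16.5 and 101 CPM in wild-type lung 1, 23, 3, 4 and 5, and at 5.21, 103, 23.7 and 408 CPM in Rel-null lung 7 to 10. In each genotype 1 library, wild-type lung 1 and Rel-null lung 10, stood far above the others, and the genotypes overlapped. The wild-type library that was lowest in Mrc1, Msr1, Marco and Cd5l was the highest in Chil3. The coefficient of variation over the 9 lung libraries was 128% for Chil3, 103% for Ear2, 84.2% for Marco and 45.2% for Mrc1. By highest over lowest lung library, Marco (1389-fold, through Rel-null lung 7) and Cd5l (116-fold) ranged more widely than Chil3 (78.4-fold).

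Ear2, the ribonuclease, was the single gene of the 8 whose lung genotypes did not overlap. Wild-type lung 1, 23, 3, 4 and 5 read 16.5, 50.4, 11.4, 28.5 and 10.3 CPM, and Rel-null lung 7 to 10 read 0, 8.08, 3.08 and 7.59 CPM. The lowest wild-type library lay above the highest Rel-null one. Over all genes tested, 2.29% had lung ranges that did not overlap, in either direction. The near-identical Ear1 was read at 4.97, 9.72 and 0.427 CPM in wild-type lung 23, 4 and 5 and at 0 counts in the other 11 libraries, and Ear10 and Ear14 were at 0 counts in all. Summed, Ear1 and Ear2 gave 10.7 to 55.4 CPM among wild-type lungs, against 0 to 8.08 CPM among Rel-null ones, also without overlap.

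Siglecf, the sialic-acid receptor used to gate alveolar macrophages, was low but present in every lung library. It read 13.5, 9.63, 7.74, 5.21 and 12.01 CPM in wild-type lung 1, 23, 3, 4 and 5, and 2.28, 9.87, 4.17 and 9.03 CPM in Rel-null lung 7 to 10, with overlap. Car4 was close to absent in lung: 3 counts in wild-type lung 23 (0.159 CPM), 16 counts in wild-type lung 3 (0.516 CPM), and 0 counts in the other 7. For the library of lowest total among those 7, Rel-null lung 7, a count of 0 allows up to 0.195 CPM. Of the 8 eosinophil genes, Epx and Prg3 were at 0 counts in every library, and in lung Prg2 reached 0.192, Il5ra 0.226, Ear6 0.477, Ccr3 2.95 and Alox15 4.16 CPM. Cd24a, which other cells also express, read 20.3 to 49.6 CPM.

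Between genotypes in lung, none of the 8 genes passed the test. With edgeR's quasi-likelihood test (Benjamini-Hochberg over 16408 genes), 0 of 8 were called at an adjusted p below 0.05, 0 of 8 had an unadjusted p below 0.05, and 0% of all genes were called. DESeq2 and limma-voom also called 0 of the 8, where they called 51 of 16094 and 6 of 16408 genes, and the unadjusted p of Ear2 was 0.0323 in DESeq2. Of the 7 genes other than Car4, Ear2 had the largest log2 fold change, -2.26 ± 1.19 (SE; edgeR adjusted p = 0.801, and 0.575 to 1 over the alternatives). The other values were -0.53 ± 1.01 for Marco, -0.40 ± 0.65 for Msr1, -0.08 ± 0.80 for Mrc1, 0.37 ± 0.83 for Cd5l, 0.15 ± 1.07 for Chil3 and -0.64 ± 1.18 for Siglecf, each with an adjusted p of 1. The median over the 8, with the fitted value of Car4 included, was -0.47, against -0.08 over all genes tested. Standard errors ran from 0.65 to 1.19 on the log2 scale, and even the value of Ear2 did not pass. The lack of calls therefore does not show that the genotypes were equal, and no smallest detectable difference is given.

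**Figure D2:**
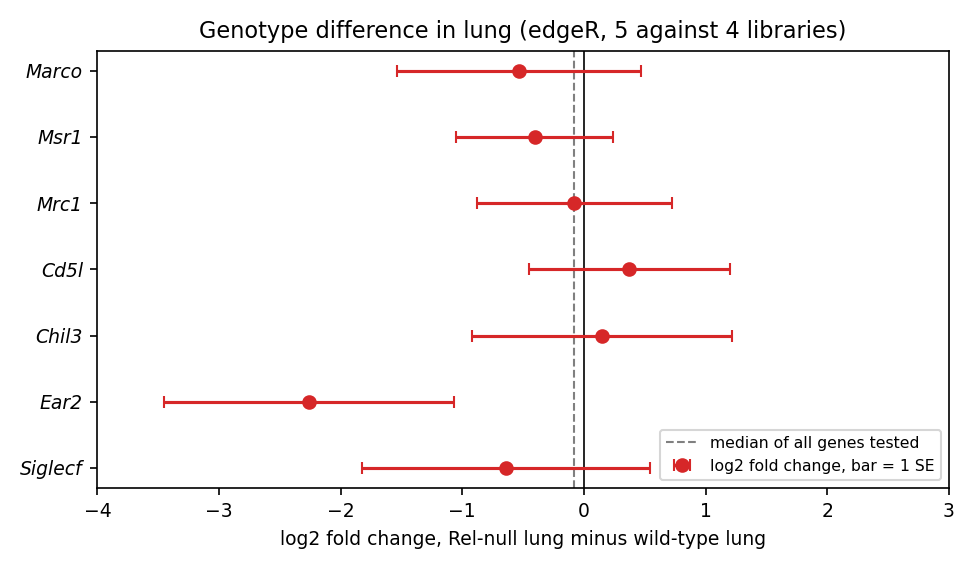
Log2 fold change of 7 genes between Rel-null and wild-type lung (x axis; Car4, nearly without counts, is left out), with bars of 1 SE and the median of all genes tested as a dashed line. Ear2 lies at -2.26, and the bars of the other 6 cross 0.

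Single libraries moved several of these values. The library labelled wild-type lung 4, low in Rel, was among those left out in turn, and without it Ear2 stood at -2.20 ± 1.27. Without Rel-null lung 10, Chil3 turned from 0.15 to -1.47 and Marco went from -0.53 to -1.97. Without Rel-null lung 7, Marco stood at -0.13, Msr1 at -0.08, Mrc1 at 0.22 and Ear2 at -1.85 ± 0.90. Leaving out wild-type lung 23 gave Ear2 -1.81, and leaving out all 4 gap-rich libraries named above gave it -1.77 ± 0.58 (edgeR adjusted p = 0.583). Ear2 thus stayed below 0 in each of these fits without passing the adjusted threshold.

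The amount of macrophage RNA differed between the lung libraries, so the genes were also set against 20 pan-macrophage genes such as Lyz2 (lysozyme), Mpeg1 (perforin-2), Cd68 and Csf1r. The 5 wild-type lungs had a summed pan-macrophage level of 5053 to 22127 CPM, and the 4 Rel-null lungs one of 9384 to 28621 CPM. Lyz2 was the largest part of this sum, with a lung median of 13736 CPM against 19096 CPM for the sum. Shares of the pan-macrophage sum given below therefore rest largely on Lyz2. Of the 20 genes, 18 had positive and 2 negative log2 fold changes in Rel-null lung, with a median of 0.72, and none was called. In bulk RNA, fewer cells of a type and less RNA per cell cannot be told apart.

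Set against that sum, Mrc1 amounted to 2.22% to 4.94% among wild-type lungs (median 3.51%) and to 1.93% to 3.21% among Rel-null ones (median 2.28%). Msr1 amounted to 0.873% to 1.91% and 0.358% to 0.968%, with medians of 0.967% and 0.520%. Both overlapped between genotypes. Marco had medians of 0.923% and 0.200%, and Rel-null lung 10, at 1.14%, stood with the wild type. Ear2 lay between 0.0515% and 0.338% among wild-type lungs and did not pass 0.0319% among Rel-null ones, again without overlap. Siglecf overlapped, at 0.0273% to 0.267% and 0.0175% to 0.0379%. For Cd5l and Chil3 the medians lay the other way: 0.218% and 0.328% for Cd5l, and 0.202% and 0.229% for Chil3, in wild type and Rel-null.

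**Figure D3:**
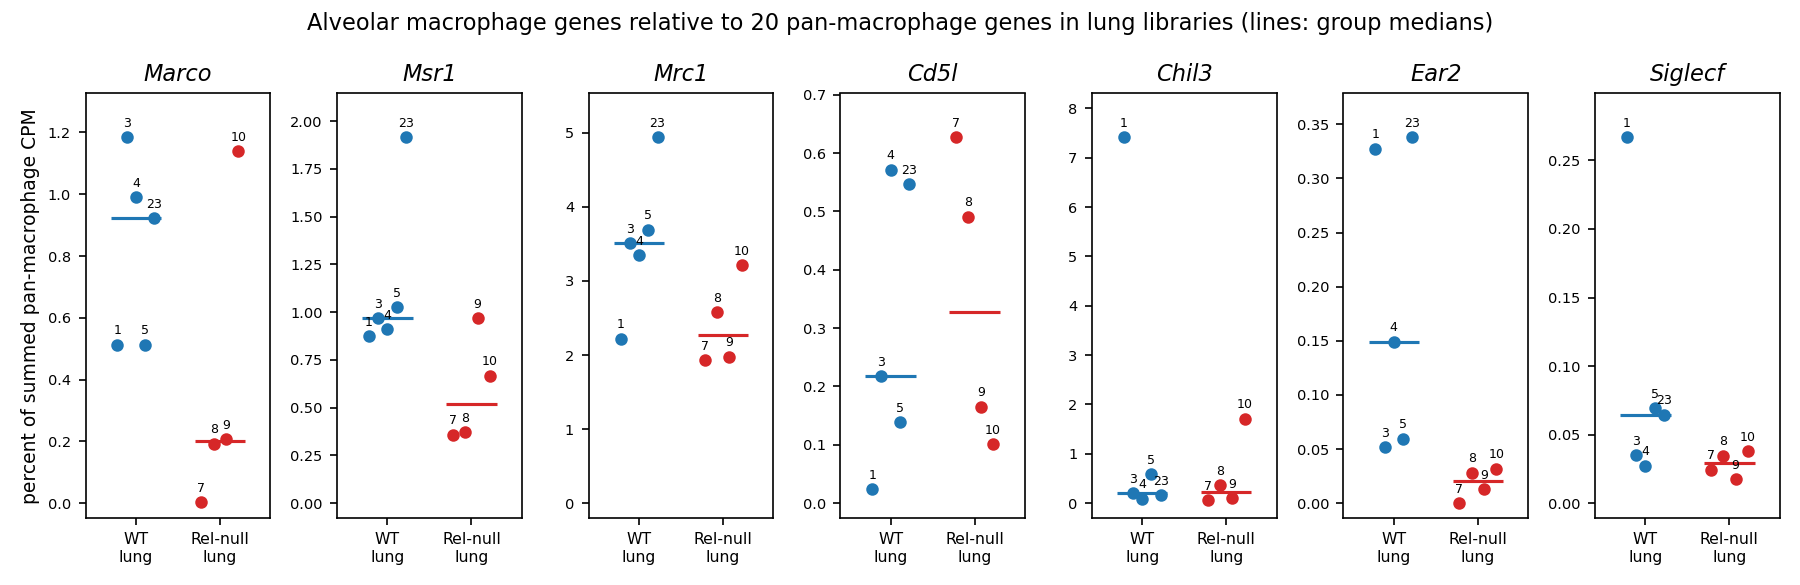
Each gene's CPM as a percent of the summed CPM of 20 pan-macrophage genes (y axis, a scale of its own per panel) in the 5 wild-type and 4 Rel-null lung libraries, with library numbers and group medians as lines. Lyz2 is the largest part of that sum. The Ear2 groups do not overlap, wild-type lung 1 stands alone in Chil3 (7.41%), and the other genes overlap between genotypes.

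With the mean log2 level of the pan-macrophage genes as a covariate in the edgeR fit, the lung log2 fold changes were -3.21 ± 1.52 for Ear2 (adjusted p = 0.575), -1.78 ± 1.09 for Marco, -1.26 ± 0.62 for Msr1 and -0.99 ± 0.71 for Mrc1. None of the 8 was called in that fit either. Chil3 stood at 1.71 ± 1.33, Cd5l at -0.03 ± 0.74 and Siglecf at -0.24 ± 1.46. The estimates of Marco, Msr1 and Mrc1 were lower than without the covariate.

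Compared per length, which is needed to rank genes against each other, Mrc1 led in lung with a median of 100.4 CPM per kb of exon, followed by Marco at 46.1, Chil3 at 27.4, Msr1 at 27.4, Cd5l at 23.7, Ear2 at 14.3 and Siglecf at 3.24, with Car4 at 0. Neighbours in this order were often not separated by library: Mrc1 exceeded Marco in 7 of 9 libraries, Marco exceeded Chil3 in 4, Chil3 exceeded Msr1 in 4, Msr1 exceeded Cd5l in 6 and Cd5l exceeded Ear2 in 6. Only the lower end was clear, with Ear2 above Siglecf in 8 of 9 and Siglecf above Car4 in 9 of 9. The leading gene also changed between libraries. Chil3 led in wild-type lung 1 (229 CPM per kb, with Mrc1 at 17.6) and in Rel-null lung 10 (250 against 120), Marco in wild-type lung 3 (136 against 122), and Cd5l in Rel-null lung 7 (28.9 against 28.4). Mrc1 led in the other 5.

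**Figure D4:**
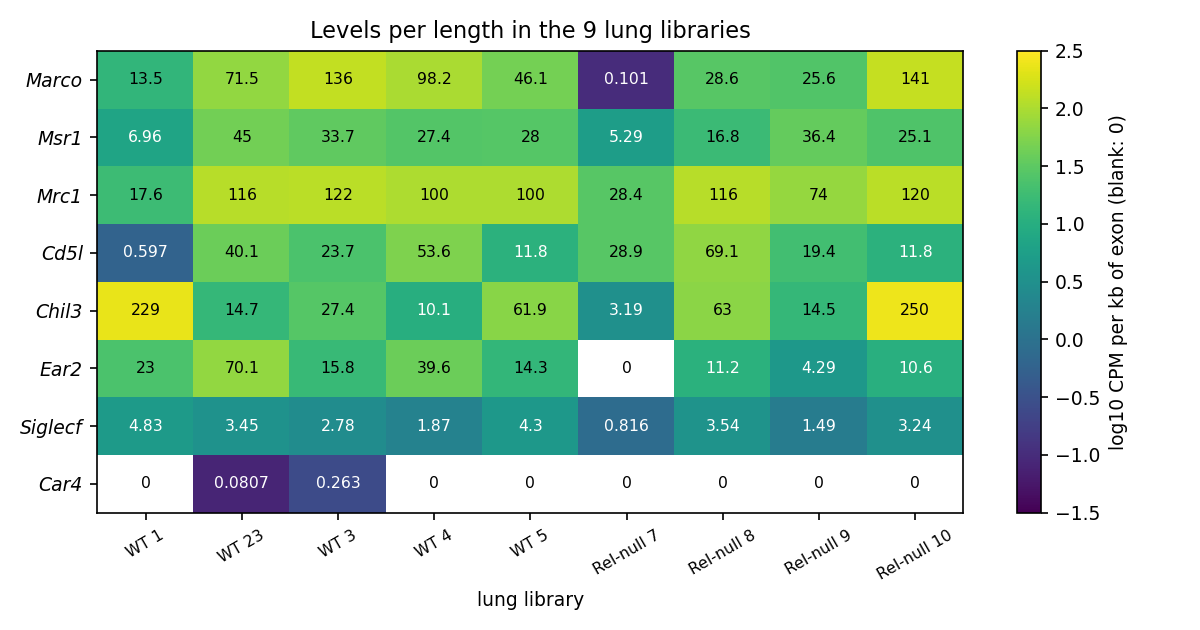
Level of each gene per kb of exon (printed in each cell, colour on a log10 scale, blank for 0) in the 9 lung libraries. Chil3 is brightest in wild-type lung 1 and Rel-null lung 10, and Marco is near 0 only in Rel-null lung 7.

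Across the 9 lung libraries, which share tissue, protocol and in part low library complexity, the log2 levels of several pairs of genes were related. Mrc1 and Msr1 had a Pearson r of 0.85 (Spearman 0.45), Marco and Ear2 0.89 (0.37), Marco and Msr1 0.83 (0.48), Siglecf and Ear2 0.76 (0.37), Marco and Mrc1 0.75 (0.82), and Chil3 and Siglecf 0.85 (0.85), whereas Chil3 and Cd5l had -0.60 (-0.58). Much of this rested on wild-type lung 1 and Rel-null lung 7. Without them, Mrc1 and Msr1 had -0.30, Marco and Msr1 0.16 and Marco and Ear2 0.41, while Chil3 and Siglecf had 0.65, Marco and Mrc1 0.57 and Chil3 and Cd5l -0.48. The same was true of the pan-macrophage score, with which Mrc1 had 0.86, Cd5l 0.72 and Msr1 0.66 over 9 libraries, and 0.05, -0.05 and -0.44 over the other 7. Ear2 went from 0.09 to -0.87. These are descriptions of few libraries.

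By the same measure over 13056 genes with at least 1 CPM on average in lung, the 3 genes most like Mrc1 were Ms4a14 (r = 0.98), Stard8 and Myo1f (both 0.97), and those most like Msr1 were Atp8b4 (0.98), Il7r and Ccl6 (both 0.97). Marco was followed most closely by Dixdc1, Trim29 (both 0.99) and Fcna (0.98), of which Fcna and Marco share near-absence in skin (at most 0.318 and 0.375 CPM). Dixdc1, Trim29 and Fcna each had a lowest lung level of 0 CPM, and Marco was lowest in the lung library with the most gaps. Chil3 was matched by B4galt5, Polr2a (both 0.97) and Tgfbr2 (0.95), Cd5l by Alg11 (0.98), B4galt6 (0.97) and Ptpre (0.96), Ear2 by Zfp397, Setd5 and Dennd4a (all 0.99), and Siglecf by Rere (0.97) and Pcdhgc3 (0.96). The genes nearest to Chil3, Cd5l, Ear2 and Siglecf were also read well in skin. Zfp397, for example, reached 60.4 CPM there. Each r was picked from among the highest of 13056 over 9 libraries, which by itself favours high values. Unlike the pairs above, these values were not rechecked with extreme libraries left out.

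Lung and skin differed far more than the genotypes. Wild-type skin 11 and 22 held Marco at 2 and 1 counts, Chil3 at 6 and 0, Cd5l at 0 and 1, Ear2 at 1 and 1, and Msr1 at 1 and 1. In Rel-null skin Marco, Chil3 and Cd5l were at 0 counts in all 3 libraries. Chil3, Cd5l, Mrc1 and Msr1 were higher in every lung library than in any skin library, 4 of the 8 genes, against 2.61% of all genes. Marco failed this only through Rel-null lung 7, and Ear2 through its 0 counts there.

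In wild type, edgeR called 4 of the 8 genes lower in skin, where 2.07% of all genes were called lower: Msr1 (log2 fold change -11.01 ± 1.66, adjusted p = 0.00158), Mrc1 (-8.55, adjusted p = 0.00953), Cd5l (-9.96, adjusted p = 0.0199) and Marco (-10.13, adjusted p = 0.0399). Chil3 (adjusted p = 0.0645), Ear2 (0.105) and Siglecf (0.750) did not pass. With limma-voom 0 of the 8 were called, where it called 489 of 16408 genes lower. Without wild-type skin 11 edgeR called 1 of the 8, Msr1, and 171 of 17826 genes lower; library 22 is then the whole group and is assumed to vary like the others. In counts pooled over libraries, wild-type lung exceeded wild-type skin 880-fold for Mrc1 (counting interval 549.8 to 1511), but 1 library set that value: it was 4475-fold against skin 11 alone and 109.9-fold against skin 22 alone. For Marco it was 1271-fold (435 to 6162), with 1709.9-fold against skin 11 and 392-fold against skin 22, on 2 and 1 counts.

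In Rel-null cultures 5 of the 8 genes were called lower in skin, against 3.23% of all genes: Cd5l (edgeR adjusted p = 0.00114), Mrc1 (log2 fold change -8.59, adjusted p = 0.00120), Marco (0.00427), Chil3 (0.00564) and Msr1 (-4.10, adjusted p = 0.0105). Without Rel-null skin 19 and 20, whose Rel level goes against their label, fewer of the 8 were called, from library 18 alone. With only the Rel-null groups in the fit, 3 of 7 tested were called (Cd5l, Mrc1 and Chil3), where 496 of 13826 genes were called lower. Against the floor of 3 counts over the Rel-null skin group, Chil3 was at least 2574-fold lower, Marco at least 1790.3-fold and Cd5l at least 1253-fold. Single lung libraries moved these limits: without Rel-null lung 10 they were 837-fold for Chil3 and 665-fold for Marco, and without Rel-null lung 8 the one for Cd5l was 777-fold. The tissue comparisons of the genotypes share no library, but both come from the same fit and share its estimate of spread, so they are not fully independent. Averaged over genotypes, edgeR called 6 of the 8 lower in skin, against 6.17% of all genes lower and 4.26% higher. They were Msr1 (-7.56, adjusted p = 7.2e-05), Mrc1 (-8.57, adjusted p = 1.34e-04), Cd5l, Marco, Chil3 and Ear2 (-6.33, adjusted p = 0.0102).

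Siglecf and Car4 were the genes whose tissue difference was not called, Siglecf at a log2 fold change of -1.66 (edgeR adjusted p = 0.409). Its skin values were spread widely, at 6.07 and 0 CPM in wild-type skin 11 and 22, and 6.38, 0.509 and 0.0782 CPM in Rel-null skin 18, 19 and 20. The 2 skin libraries that reached the lung range, 11 and 18, are those with the most gaps in skin. With all 4 gap-rich libraries left out, wild-type skin is library 22 alone, whose 0 counts put Siglecf at least 9.51-fold below wild-type lung. In Rel-null cultures the log2 fold change was then -4.74 ± 0.85 (edgeR adjusted p = 0.00265), from skin libraries 19 and 20. Relative to pan-macrophage counts, Siglecf amounted to 4.68% in pooled wild-type skin and 1.71% in pooled Rel-null skin, against 0.0600% and 0.0296% in lung. The gap-rich libraries carried those pooled shares, with 4.99% in skin 11 and 2.83% in skin 18, against 0 of 182 counts in skin 22, 0.268% in skin 19 and 0.0556% in skin 20. Car4 was read in 1 of the gap-rich libraries, with 30 counts (1.29 CPM) in wild-type skin 11 against 0 in wild-type skin 22, and 0, 1 and 0 in Rel-null skin 18, 19 and 20.

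The pan-macrophage genes moved with tissue as well. Their summed level was 5053 to 28621 CPM in lung and 68.3 to 225 CPM in skin. Of the 20 genes 17 were called lower in wild-type skin and 18 in Rel-null skin, against 2.07% and 3.23% of all genes. In every lung library 17 were higher than in any skin library, against 2.61% of all genes. With their score as a covariate, edgeR called none of the 16408 genes between tissues, so that fit says nothing about the 8: tissue and score cannot be told apart. Relative to pan-macrophage counts, Rel-null skin held Marco, Chil3 and Cd5l at 0 against 11242 counts, which puts each below 0.0328% (upper 95% bound). The pooled Rel-null lung shares were 0.434%, 0.620% and 0.301%, although Marco in Rel-null lung 7, at 0.00208%, lay below the skin bound. Mrc1 amounted to 0.614% (0.477% to 0.777%) in Rel-null skin and 2.52% in Rel-null lung. The single skin libraries did not share 1 value of Mrc1: it was 0 counts to 6462 in Rel-null skin 18, 1.34% and 1.61% in 19 and 20, 0.106% in wild-type skin 11 and 7.69% (4.12% to 13.2%) in wild-type skin 22, which lies above every lung library. A lower share of Mrc1 in skin therefore did not hold in every library.

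Msr1 took another course in skin. Wild-type skin 11 and 22 had 1 count each (0.0430 and 0.375 CPM), and Rel-null skin 18, 19 and 20 read 19.2, 4.33 and 1.41 CPM, without overlap. Groups this small separate often: 25.1% of all genes had skin ranges that did not overlap, and Marco was the only other of the 8. The log2 fold change was 6.503 ± 1.602 (edgeR adjusted p = 0.369), so it did not pass, and edgeR called 0 of the 8 and 0% of all genes. DESeq2 called Msr1 (adjusted p = 8.36e-04) and no other of the 8, where it called 0.951% of all genes. Leaving out the 4 gap-rich libraries gave 3.16 ± 1.72 (edgeR adjusted p = 0.510), and without Rel-null skin 18 it was 5.00 ± 1.38. Without Rel-null skin 19 and 20 it was 7.68 ± 1.35 (edgeR adjusted p = 0.0279), a value that rests on library 18 alone, gap-rich and highest in Msr1, with the spread taken from the other groups.

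The genotype effect on Msr1 in skin minus that in lung was 6.91 ± 1.73 (edgeR adjusted p = 0.588), with 0 of the 8 and 0% of all genes called. DESeq2 called this difference for Msr1 (adjusted p = 0.00266), as 1 of 100 genes called among 16094. Per pan-macrophage count, Msr1 amounted to 8.51% (7.79% to 9.29%), 2.28% and 1.00% in Rel-null skin 18, 19 and 20, against 0.0354% in wild-type skin 11 and at most 1.91% in any lung library. Wild-type skin 22 had 1 count of Msr1 to 182 pan-macrophage counts, which allows 0.0138% to 3.10%. The highest value came from the library with the most gaps in its group. Other lists also differed between the skin genotypes, and not all in the same direction. Epithelial genes summed to 630.1 to 1193 CPM in the Rel-null libraries and 32.7 to 96.6 CPM in the wild-type ones, dendritic cell and monocyte genes to 265 to 404 against 68.0 to 121 CPM, eosinophil-list genes to 86.3 to 137 against 19.5 to 31.98 CPM, and pan-macrophage genes to 141 to 225 against 68.3 to 122 CPM. Genes of alveolar macrophage differentiation and lipid handling summed lower, at 985.8 to 1195.2 CPM in Rel-null against 1197.3 to 3352 CPM in wild-type skin. The sums of wild-type skin 22 (1197.3 CPM) and Rel-null skin 19 (1195.2 CPM) nearly met. The highest sum was that of gap-rich skin 11, and Lpl and Fabp4 reached 1249 and 899 CPM in wild-type skin. By gene this list did not lie lower: 13 of 23 tested were higher and 9 lower in Rel-null skin (median log2 fold change 0.12). Fibroblast genes also summed lower in Rel-null skin, with overlap, at 16262.5 to 35259 against 29453 to 47340 CPM. The part of these lists in the Msr1 difference was not tested.

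Genes that build the alveolar macrophage were read beside the 8, from a list of 25 (23 tested) covering the GM-CSF pathway and lipid handling. In lung, 10 were higher and 13 lower in Rel-null cultures, with a median of -0.23 and none called. Between tissues, 7 were called lower in wild-type skin and 9 in Rel-null skin, against 2.07% and 3.23% of all genes. Csf2rb, the GM-CSF receptor beta chain, ran from 46.5 to 193 CPM in lung and from 0.559 to 8.28 CPM in skin. Siglec1 (CD169) ran from 29.7 to 503 CPM in lung and reached at most 3.70 CPM in skin, and Atp6v0d2, a proton pump subunit, from 17.6 to 125 CPM against at most 4.46. Itgax (CD11c), carried by alveolar macrophages and dendritic cells, ran from 35.2 to 169 CPM in lung and reached 3.57 CPM in skin. Pparg, the factor of alveolar macrophage differentiation, was as high in skin (2.66 to 28.7 CPM) as in lung (3.49 to 26.6 CPM). Fabp1 and Krt79, also known from alveolar macrophages, did not pass 0.192 and 0.0529 CPM in lung. Whether the macrophages in these cultures were alveolar was not tested.

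Other macrophage lists behaved as follows. Of 19 tested genes of interstitial and other tissue macrophages, 16 had positive log2 fold changes in Rel-null lung (median 0.43, none called). Between tissues this list moved both ways. In wild-type skin 4 were called lower and 1 higher, and in Rel-null skin 5 lower and 2 higher. Of all genes, 2.07% and 3.23% were called lower. Apoe, Fcrls and Stab1 were called lower in both genotypes. Ccl8 was called higher in both, and Ccl7 in Rel-null skin. Every skin library held more Ccl8 than any lung library. Fcrls stood at 17.3 to 627 CPM in lung and at 0 counts in all skin libraries, while Timd4 did not pass 1.35 CPM. Of 10 tested alternative-activation genes, 7 were lower in Rel-null lung (median -0.36, none called). Arg1 read 37.2 to 625.1 CPM in lung, and Retnla did not pass 0.0529 CPM. Of 16 tested scavenger receptors and lectins outside the 8, 10 were lower in Rel-null lung (median -0.30, none called). In wild-type skin 4 were called lower, against 2.07% of all genes: Clec7a, Stab1, Clec4n and Scara3.

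Of 11 growth factors and receptors tested, 6 were higher in Rel-null lung (median 0.01, none called). Csf1, the macrophage growth factor, was higher in skin averaged over genotypes (log2 fold change 1.70 ± 0.52, edgeR adjusted p = 0.0473), with 1085 to 2462 CPM in skin and 98.4 to 1484 CPM in lung. Of 12 tested relatives of the 8 genes, 6 were higher and 6 lower in Rel-null lung. Cd33 and Siglec1 were called lower in wild-type skin, where 2.07% of all genes were. Mrc2, the relative of Mrc1, read 161 to 570.4 CPM in lung and 393 to 735 CPM in skin, so it did not share the tissue pattern of Mrc1.

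Markers of other cells were read in the same libraries. Summed over 12 genes, fibroblast markers stood at 33607 to 146304 CPM in lung. Wild-type lung 1, lowest in Mrc1 and in pan-macrophage genes, was the highest of these. Endothelial genes summed to 388 to 800.4 CPM in lung and 44.3 to 251 CPM in skin. Ednrb, known from the Car4-type capillary, read 16.8 to 638 CPM in lung, and Ednrb, Apln and Fibin were the most abundant of the list there. Pecam1, Cdh5, Cldn5 and Tie1 were low, with lung medians of 5.34, 8.03, 3.60 and 3.70 CPM. Whether endothelial cells were present was not tested. Neutrophil genes summed to 60.3 to 883 CPM in lung and 11.3 to 966 CPM in skin, dendritic cell and monocyte genes to 110 to 620.2 and 68.0 to 404 CPM, lung epithelial genes to 116 to 383 and 32.7 to 1193 CPM, and eosinophil genes to 20.3 to 50.6 and 19.5 to 137 CPM. The eosinophil sum was almost wholly Cd24a, which other cells express. The high epithelial sums in skin came mainly from Krt8, Cdh1, Krt18 and Epcam in Rel-null skin, while Sftpc was at 0 counts in every skin library. In lung the neutrophil sum was mainly Mmp9, Mmp8 and Lcn2, with S100a9 at 0 counts and Csf3r at most 26.9 CPM. The dendritic cell and monocyte sum in skin was mainly Plac8 and Nr4a1, with Irf8 at most 0.955 CPM. Lymphocyte genes reached 15.9 CPM, in Rel-null lung 7, and at most 1.13 CPM in skin. None of these lists had a gene called between lung genotypes, and their part in the values of the 8 genes was not tested.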

How the data were processed

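RNA was sequenced from 14 mouse cultures. The authors deposited raw read counts per Ensembl gene, a table of whole numbers. Tools listed per the submitters' processing notes were STAR 2.4.2a, Trimmomatic 0.33 and FastQC 0.11.2, with the build GRCm38. A directional kit is named per the labels' protocols, but which program counted reads, with which strand option and gene models, is not given in the sources used here. Symbols came from GENCODE M21, which held 48435 of 48795 identifiers. Counts were divided by library totals to give CPM. Genes were tested with edgeR 4.0.16 (TMM, filterByExpr with a minimum count of 10 and minimum total of 15, quasi-likelihood F test, 4 group means over all 14 libraries, Benjamini-Hochberg over 16408 genes, threshold 0.05). All 8 genes passed the filter. Folds of Car4 are not given, because its counts were too few. Test code was checked on simulated counts. DESeq2 1.42.0, limma-voom 3.58.1, other scalings and filters, left-out libraries, fits of only the groups compared and a pan-macrophage covariate were alternatives. Single-library intervals are exact Poisson at 95%, shares of pan-macrophage counts have exact binomial intervals, and a count of 0 was set to a floor of 3 counts. Because reads carried no molecular identifiers in any source, intervals and floors cover counting error only. The genes named were the 8, per other list its called genes or its most abundant ones and genes chosen after their values were seen (Rel, Xist, Pparg, Fabp1, Krt79, Timd4, Retnla, Epx, Prg3, Il5ra, Prg2, Ear6, Ccr3, Alox15, Ednrb, Mrc2, Cd24a), and the 3 likest genes by Pearson r of log2 CPM with a prior count of 1, of which 1 is not reported here. Pecam1, Cdh5, Cldn5, Tie1 and Fabp4 were also named after their values were seen. The 8 genes and the lists were chosen with earlier results of these data known. No 2 libraries of a group agreed within sampling noise (lowest chi-square per degree of freedom 35.3).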

Additional observations from a re-analysis of the deposited data

Results flagged for a closer look

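Each of the 8 genes and the pan-macrophage sum was examined in each lung genotype for a library far from the rest, except Car4 in Rel-null lung, where all counts were 0. Of these 17 combinations 2 stood out, and chance alone marks about 1 in 20 such combinations. Chil3 read 374.5 CPM in wild-type lung 1, while the other 4 wild-type lung libraries lay between 16.5 and 101 CPM. Mrc1 read 112.3 CPM in the same library, while the others lay between 639 and 777 CPM. Both values come from the library with the lowest pan-macrophage sum in lung (5053 CPM) and 1 of 2 libraries with Xist. Without it, the lung log2 fold changes of the 7 genes other than Car4 kept their sign, but that of Chil3 moved from 0.15 to 1.56 and that of Cd5l from 0.37 to 0.06.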

How the results depend on the processing

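The count of the 8 genes called in lung between genotypes was 0 under every alternative run, and Ear2 stayed negative there. Between wild-type tissues the count of 4, against 339 of 16408 genes called lower, became 0 with limma-voom (489 of 16408). With the pan-macrophage covariate it was 0. Leaving out single libraries gave up to 6 (without Rel-null lung 7, with 562 of 16443 genes called lower). The count was lower without wild-type skin 11, which leaves library 22 alone. Between Rel-null tissues 5 became 2 without Rel-null skin 19 and 20, 3 with only the groups compared and 0 with the covariate, but 6 with DESeq2 and 7 with limma-voom or without the gap-rich libraries. Averaged over genotypes 6 were called, against 1012 of 16408 genes called lower. The count became 0 with the covariate and 4 with limma-voom (1702 of 16408). It was higher without the gap-rich libraries, where more of all genes were also called lower and wild-type skin is library 22 alone. The covariate fits called 0 of all 16408 genes in the tissue comparisons. In skin between genotypes, and for the genotype difference between tissues, 0 became 1 (Msr1) without a low-count filter and with DESeq2. The main fits called 0 of all genes there. Without the filter 58 and 31 of 24046 genes were called, and with DESeq2 153 and 100 of 16094. The count also rose without Rel-null skin 19 and 20, which leaves 1 library of Rel-null skin. In lung, the log2 fold change of Mrc1 turned to 0.071 with limma-voom and 0.25 when the 4 gap-rich libraries were left out, and leaving out single libraries gave -0.32 to 0.22. That of Chil3 ran from -1.47 to 1.56 over left-out libraries and that of Cd5l from -0.37 to 0.80, with -0.026 under the covariate. The covariate also turned the tissue values of Marco (2.61), Cd5l (0.20) and Mrc1 (1.67) in wild type, of Ear2 (0.17), Mrc1 (0.56) and Msr1 (3.61) in Rel-null cultures, and of Mrc1 (1.11) and Msr1 (0.90) averaged; the cause was not tested. Fits of only the groups compared were not run for the averaged tissue value and the genotype difference. No paired analysis was possible because no library number is shared between groups. Genes near 0 counts, Car4 in lung and most in skin, are limited by depth, above all in wild-type skin 22.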
